A study of Oryctolagus cuniculus with 18 samples.

Results

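The genes described here are 150 rabbit genes that were read more in retina than in the underlying tissue of non-operated eyes and were lower in each of 6 retinas taken from operated eyes. Levels are in CPM, the reads of a gene per 1000000 reads counted on genes in that library. A gene was called retina-preferring when its mean level in non-operated retina was at least 2 CPM and the log2 ratio of that mean to the mean in non-operated RPE-choroid, with 0.5 CPM added to both, was at least 1. Of the 29587 genes counted, 12499 reached 2 CPM in non-operated retina and 1944 were retina-preferring. In 380 of these (19.5%) the highest of the 6 operated retina samples lay below the lowest non-operated one, against 6.93% of all 12499 genes. The 105 retina-preferring genes (5.4%) that did not overlap in the other direction compare with 17.6% of the 12499. The 380 genes were ordered by the log2 ratio of the operated mean to the non-operated mean (0.5 CPM added), and the first 150 were kept. These counts come from the same values that chose the genes and are given as a description.

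The study used male New Zealand White rabbits aged 4 to 6 months. It removed the vitreous, the gel that fills the eye, and filled the cavity with poly(CEP), a polymer that gels at body temperature. Treated eyes were given an ointment of tobramycin and dexamethasone in the days after surgery. Retina and RPE-choroid were sequenced from non-operated eyes, from filled eyes at 1 month and from filled eyes at 2 months, with 3 samples in each of the 6 groups and 18 in all. The sample labels call the second tissue retinal pigment epithelium. Eyes that were operated without poly(CEP) were not analysed here, so surgery, ointment and polymer cannot be told apart. The study lists its 2-month eyes of this kind as the fellow eyes of animals given a scarring model in the other eye, and its 1-month eyes not so, without stating which eyes were sequenced. Time after surgery and this history cannot be told apart. The replicates are described as biological triplicates, and the labels do not say which retina and RPE-choroid samples share an eye. The retina is the light-sensing neural tissue, in which photoreceptors pass signals to inner neurons supported by Müller glia. The retinal pigment epithelium (RPE) is the cell layer against the photoreceptors, which recycles visual pigment and clears shed photoreceptor tips, and the choroid is the vascular layer beneath it. Because retina and RPE lie against each other, RNA of one is readily carried into a dissection of the other. The gene identifiers could not be paired with names, since 0 of them matched the table of rabbit gene names used here. The tissues were therefore not checked against their defining markers, no gene is described by its function, and identifiers are given for 4 members only.

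Libraries held 22335005 to 33505730 reads counted on genes, and some stood apart from their group. In retina, 1-month replicate 3 had the lowest and 2-month replicate 3 the highest levels of the 150 genes among operated samples. In RPE-choroid, non-operated replicate 2 and 2-month replicate 3 held few reads of retina-preferring genes. The 1794 retina-preferring genes outside the 150 summed to 23640 and 22740 CPM there, and to between 60500 and 173800 CPM in the other 7 RPE-choroid libraries. A set of 463 retina-preferring genes that did not meet the criteria, defined further on, summed to 428 and 402 CPM there. In the other 7 libraries it summed to between 8867 and 40350 CPM, with 34810 CPM in non-operated replicate 3. Its low sum in non-operated replicate 2 was set by its definition, a level under 2% in that library. The tissue preference of a gene therefore depended on the non-operated RPE-choroid library used. Over the 150 genes its median was 1.64, with a range of 1.01 to 2.58. Against replicate 1, 2 or 3 alone the median log2 preference was 2.02, 3.80 and 0.712.

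The mean level of the members in non-operated retina ran from 2.04 to 32900 CPM, with a median of 131 CPM. In the 3 non-operated retinas the median member stood at 138, 123 and 123 CPM. At 1 month it stood at 54.1, 58.9 and 32.6 CPM, and at 2 months at 53.4, 44.2 and 88.1 CPM. Each operated retina thus had a median below those of the 3 non-operated retinas, with 2-month replicate 3 the closest to them. As a percentage of its own mean in non-operated retina, the median member was at 46.9%, 47.4% and 24.7% in the 1-month samples. The corresponding 2-month values were 40.3%, 35.1% and 68.5%. In bulk tissue, fewer cells of a type and less RNA in each cell cannot be told apart. The ratio that ordered the members had a median of -1.14 on the log2 scale, ran from -3.00 for the first member to -0.87 for the last, and was -0.864 for the next gene, which was left out. That next gene went from a mean of 106 CPM to 58.1 CPM, and the last member from 120 CPM to 65.5 CPM.

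**Figure D1:**
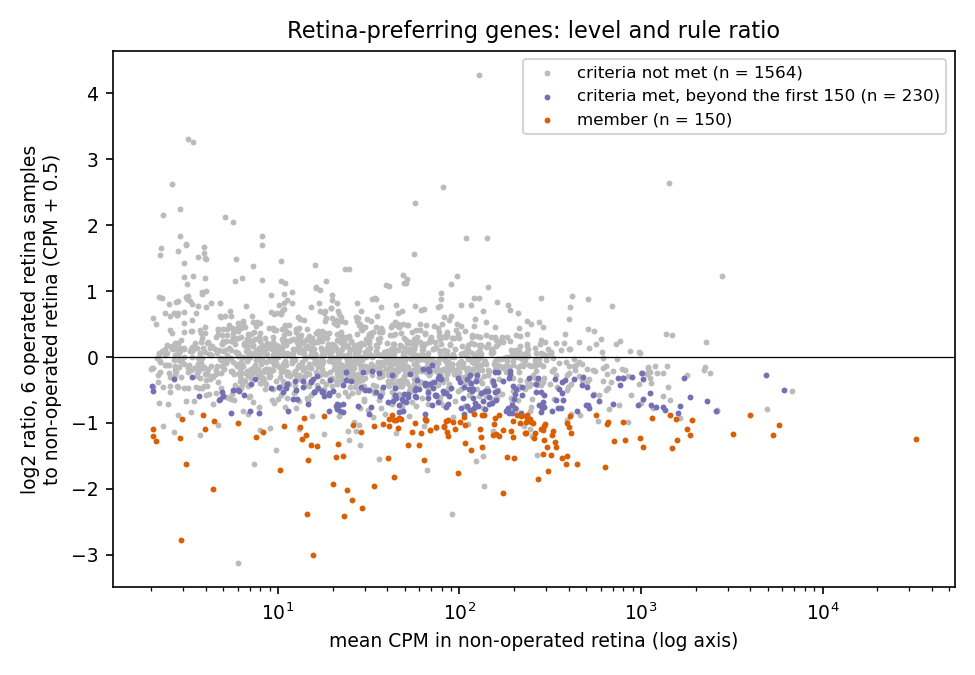
Each point is one of the 1944 retina-preferring genes, with its mean CPM in non-operated retina on a log axis and the log2 ratio of the 6 operated retina samples to the 3 non-operated ones (0.5 CPM added) on the vertical axis. The 150 members (orange) lie at -0.87 or lower across the range of levels, and the 230 genes beyond the limit on number (purple) lie between them and 0.

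**Figure D2:**
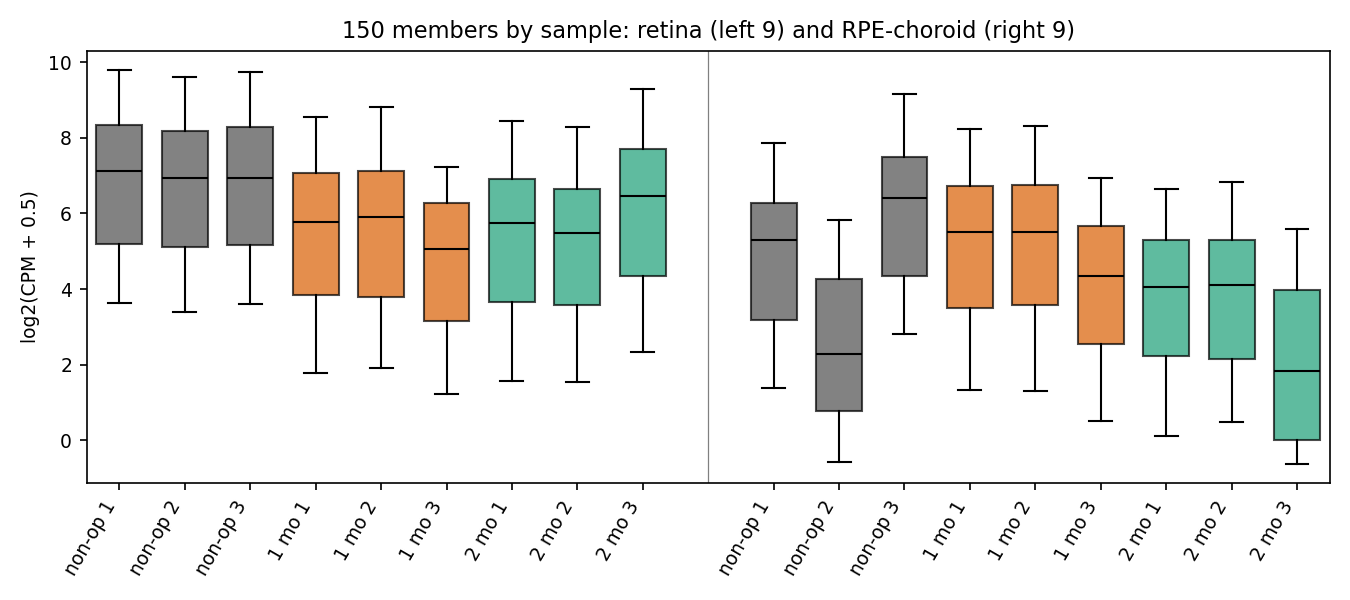
Boxes show the levels of the 150 members as log2(CPM + 0.5) in each of the 18 samples, with the median, the quartiles and whiskers at the 10th and 90th percentiles. In retina the medians of the 6 operated samples lie below those of the 3 non-operated samples, and in RPE-choroid the non-operated samples differ widely.

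The first member in that order, ENSOCUG00000035545, was at 17.1, 17.7 and 11.7 CPM in non-operated retina. It was at 1.23, 1.51 and 0.125 CPM at 1 month and at 0.713, 0.403 and 5.0 CPM at 2 months. The highest of these, 2-month replicate 3, lay between the other operated samples and the non-operated ones. The fitted log2 fold change against non-operated retina was -4.16 (SE 1.06, edgeR quasi-likelihood test, Benjamini-Hochberg adjusted p = 0.0318) at 1 month. At 2 months it was -3.01 (SE 0.99, edgeR adjusted p = 0.0877), above the threshold of 0.05. In RPE-choroid the gene stood at 3.31, 0.0341 and 8.18 CPM without operation, at 0.447, 0.126 and 0.208 CPM at 1 month, and at 0.577, 0.311 and 0.424 CPM at 2 months.

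The second identifier, ENSOCUG00000012496, is the third member in the order. It was at 33.0, 18.9 and 17.3 CPM in non-operated retina, at 4.68, 3.42 and 1.69 CPM at 1 month, and at 2.32, 1.34 and 10.2 CPM at 2 months. As with the first gene, 2-month replicate 3 was the highest operated retina. The fitted log2 fold change was -2.95 (SE 0.78, edgeR adjusted p = 0.0348) at 1 month and -2.42 (SE 0.76, edgeR adjusted p = 0.0773) at 2 months. In RPE-choroid it stood at 7.16, 1.40 and 8.89 CPM without operation, at 3.35, 1.95 and 1.90 CPM at 1 month, and at 1.08, 0.553 and 1.46 CPM at 2 months. The member between these genes in the order had 217, 11 and 49 counts in non-operated retina and 0 counts in all 6 operated retinas. A count of 0 allows up to 0.094 to 0.134 CPM in those libraries (3 counts, counting error only). Its non-operated values already differed by 6.66 against 0.411 CPM, and it also had 0 counts in the 6 operated RPE-choroid samples.

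**Figure D3:**
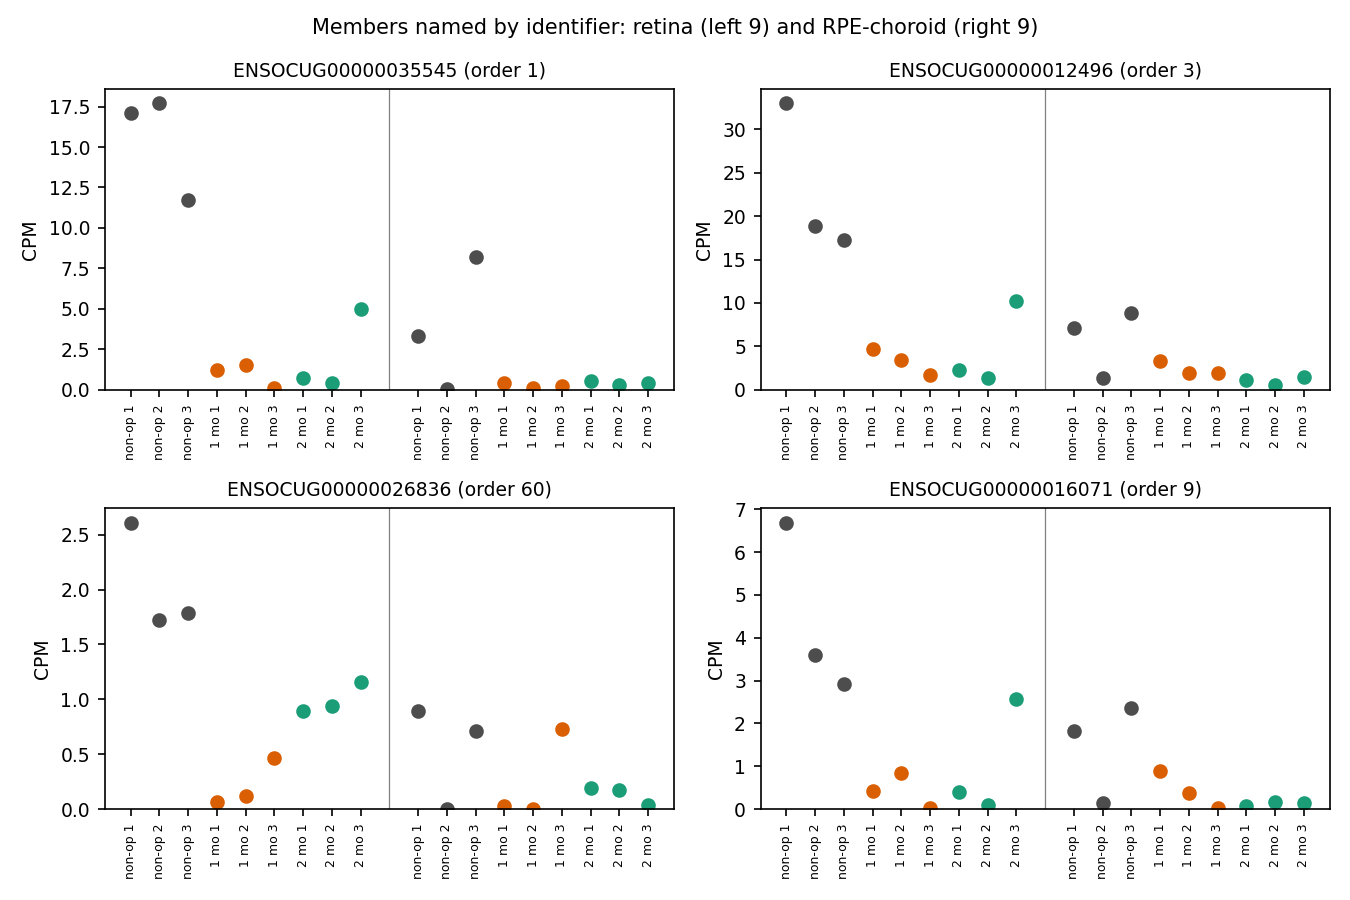
Levels in CPM of the 4 members named by identifier in each retina sample (left of the line in each panel) and each RPE-choroid sample (right). Grey points are non-operated, orange 1 month and green 2 months; in 3 of the 4 panels 2-month retina replicate 3 stands above the other 5 operated retinas by a wide gap.

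Many members took a large share of the reads. At least 100 CPM in non-operated retina was reached by 82 of 150 members (54.7%), against 454 of the 1794 other retina-preferring genes (25.3%), whose median was 31.8 CPM. The level and the 0.5 CPM added to the ratio are part of the rule, so this contrast describes what was chosen and was not tested. Tissue preference had a median log2 ratio of 1.64 for the members and 1.48 for the others. CPM are not divided by gene length, so these are shares of reads and not amounts of RNA per gene. The median of the log2 ratio, which the order of members limits to -0.87 or lower, was -1.17 for the 14 members under 10 CPM, -1.14 for the 54 from 10 to under 100 CPM, -1.13 for the 68 from 100 to under 1000 CPM and -1.13 for the 14 at 1000 CPM or more. Relative to non-operated retina, the medians of these classes in the same order were 37.1%, 40.8%, 40.4% and 40.3% for the mean at 1 month and 36.2%, 47.6%, 50.2% and 51.5% for the mean at 2 months. In 1-month replicate 3 they stood at 32.4%, 27.6%, 24.6% and 15.1%, lowest in the class with the most reads. In 2-month replicate 3 they stood at 51.3%, 67.5%, 71.3% and 73.6%, highest in that class.

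The 14 members at 1000 CPM or more held 74.2% of the summed level of the 150 genes in non-operated retina, and 1 of them took 37.2% to 38.1% of the sum there. That member stood at 33500, 32300 and 33000 CPM in non-operated retina. At 1 month it stood at 16700, 20000 and 2450 CPM, and at 2 months at 11200, 9330 and 24300 CPM. Its 1-month replicate 3 was thus the lowest by a wide gap, and it made up 18% of the members' sum in that library. Together the 150 genes took 8.94%, 8.48% and 8.86% of the reads counted in non-operated retina. They took 4.49%, 4.94% and 1.36% at 1 month and 3.41%, 2.90% and 6.40% at 2 months. The summed level was 87600 ± 2440 CPM (SD, n = 3) without operation, 35940 ± 19500 CPM (n = 3) at 1 month and 42380 ± 18900 CPM (n = 3) at 2 months. Without the highest member the means were 54660 ± 1870, 22920 ± 10200 and 27440 ± 10700 CPM. Both operated groups were therefore far more variable than the non-operated group. For the median member the coefficient of variation over 3 samples was 11.5% in non-operated retina, 34.8% at 1 month and 36.6% at 2 months, and a narrow non-operated spread was favoured by the criterion of no overlap.

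A gene was called when its adjusted p was under 0.05. The edgeR fit of the 9 retina samples called 102 of the 150 members lower at 1 month than in non-operated retina, where 7.07% of the 15878 genes tested were called lower. At 2 months it called 57 members lower, all of them among the 102, against 2.99% of genes tested. The remaining 48 members were called at neither time. The median fitted log2 fold change was -1.44 at 1 month and -1.17 at 2 months, against 0.01 and -0.002 over all genes tested. These calls rest on the values that chose the members, and both comparisons share the non-operated samples, so they show how far the spread between replicates lets single members pass and nothing about the group. At 1 month the count fell to 46 without non-operated replicate 1, 55 without non-operated replicate 3 and 61 without 1-month replicate 1. Over all genes those fits called 258 of 16132, 380 of 16105 and 331 of 16075 lower. At 2 months the count of members was 114 without 2-month replicate 3 and 18 without either of the other 2-month replicates. Over all genes the call was 1953 of 16211 without replicate 3, and 71 of 16158 and 71 of 16114 without replicates 1 and 2. Members called were 21, 37 and 23 without non-operated replicates 1, 2 and 3. Genes called were then 91 of 16132, 347 of 16236 and 154 of 16105.

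The rule treated the 6 operated retinas alike, so their order among themselves was not used. Of 149 members without ties, 110 (73.8%) were lowest in 1-month replicate 3, against 17.5% of all genes at 2 CPM or more and 21.6% of the 1564 retina-preferring genes that did not meet the criteria. In 2-month replicate 3, 132 members (88.6%) were at their highest, against 22.9% and 23.0% of those gene sets. The members thus kept much the same order of samples. Across the 6 operated retinas the correlation of a member with the summed level of the others had a median of 0.905 (quartiles 0.754 and 0.972), and exceeded 0.5 for 126 of the 149. For the other retina-preferring genes the median correlation with the members' sum was -0.294 (quartiles -0.764 and 0.596), and 515 of 1794 (28.7%) exceeded 0.5. These are descriptions over 6 libraries that share depth and composition with each gene in them. The members' sum is weighted to the members with the most reads, 14 of which held 74.2% of it in non-operated retina. Below 10% of the non-operated mean stood 19 members in 1-month replicate 3 and 8 in any of the other 5 operated retinas.

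Some other values also differed between these samples. The 2729 genes with the opposite preference, for RPE-choroid, summed to 47540, 49210 and 46780 CPM in non-operated retina. Their sums were 77630, 72190 and 92730 CPM at 1 month and 88140, 96440 and 60390 CPM at 2 months. The highest of the 1-month sums was again in replicate 3 and the lowest of the 2-month sums in replicate 3, the reverse of the members. Reads aligned to several places made up 11.7% and 11.1% in 2-month replicates 1 and 2 and between 8.08% and 9.38% in the other 7 retinas. They made up 8.45% in 1-month replicate 3 and 8.44% in 2-month replicate 3, the operated retinas lowest and highest in members. In 2-month replicates 1 and 2 the members were lower than in 2-month replicate 3. The part of reads aligned to several places in the members' levels was not tested. Relative to the other retina-preferring genes of the same library, the members summed to 38.1, 36.4 and 38.3 CPM per 100 CPM in non-operated retina. The ratio was 20.7, 22.3 and 6.71 at 1 month and 16.1, 13.7 and 28.5 at 2 months, so the operated samples kept their order on this scale.

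Retina at 2 months was compared with retina at 1 month, a contrast that the rule did not use. The edgeR fit called 0 of 150 members in either direction, where 0.0063% of genes tested were called higher and 0.0% lower. At an unadjusted p under 0.05, 6 members were higher and 0 lower, against 1.86% and 2.17% of genes tested. DESeq2 called 3 higher, against 0.154% of the 23306 genes with any count. Levels at 1 month and 2 months did not overlap for 5 members (3.33%), against 7.23% of genes at 2 CPM or more. The fitted log2 fold change was above 0 for 132 members, with a median of 0.255 against 0.006 over all genes tested. That shift rested on both replicates 3. Without 1-month replicate 3 the median was 0.007 and 77 members were above 0. Without 2-month replicate 3 it was -0.148, with 117 members below 0 and 3 called lower, against 38 of 16211 genes tested.

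The members with the largest fitted increase between those times were ENSOCUG00000026836 and ENSOCUG00000016071, and neither passed the test. ENSOCUG00000026836 was at 2.61, 1.72 and 1.79 CPM in non-operated retina, at 0.0664, 0.119 and 0.470 CPM at 1 month, and at 0.891, 0.940 and 1.16 CPM at 2 months. The 2 operated groups did not overlap, at 2 to 15 counts and 21 to 31 counts. The log2 fold change of 2 months against 1 month was 2.15 (SE 0.56, edgeR adjusted p = 0.583). ENSOCUG00000016071 was at 6.69, 3.59 and 2.93 CPM in non-operated retina, at 0.431, 0.834 and 0.0313 CPM at 1 month, and at 0.392, 0.0895 and 2.57 CPM at 2 months. Its log2 fold change was 1.31 (SE 1.15, edgeR adjusted p = 1.0), and only replicate 3 at 2 months stood above the 1-month range.

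In RPE-choroid, where members are low by the rule, the median member was at 38.8, 4.38 and 83.7 CPM without operation. It was at 44.6, 45.0 and 19.9 CPM at 1 month and at 16.2, 16.7 and 3.08 CPM at 2 months. The 3 non-operated libraries spanned all operated ones but 2-month replicate 3, which lay below them. Non-operated replicate 3 was the highest of the 9 for 140 members, 2-month replicate 3 the lowest for 94 and non-operated replicate 2 the lowest for 33. The summed level was 25440 ± 25600 CPM (SD, n = 3) without operation, 23490 ± 11900 CPM (n = 3) at 1 month and 6222 ± 2850 CPM (n = 3) at 2 months. Without non-operated replicate 3 the non-operated mean was 11430 CPM. The summed level of the other retina-preferring genes also differed between these groups, at 79790 ± 63800, 148700 ± 28100 and 48650 ± 22500 CPM (n = 3 each). Its part in the members' values was not tested.

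Against non-operated RPE-choroid at 2 months, edgeR called 0 of 149 members tested, and 0.0% of the 16322 genes tested were called in either direction. The smallest adjusted p of a member was 0.317. At an unadjusted p under 0.05, 55 members were lower, against 3.85% of genes tested. DESeq2 called 11 lower, against 0.441% of the 23135 genes with any count. The edgeR log2 fold change was below 0 for 147 of 149, with a median of -1.76. Leaving out non-operated replicate 3, the library richest in members, brought the 55 to 9 and the median to -0.786. Leaving out non-operated replicate 2 brought them to 124 of 150 and -2.27. Over all genes, those fits had 565 of 16629 and 1407 of 16617 lower at that unadjusted threshold. The 2-month samples lay below all 3 non-operated ones for 8 members, against 3.83% of genes at 2 CPM or more.

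At 1 month, 0 members were called against non-operated RPE-choroid by edgeR, against a background of 0.0123% called higher and 0.0% called lower. At an unadjusted p under 0.05, 5 were lower, against 13.3% of genes tested. DESeq2 called 3 lower, against 4.13% of genes with any count. The median edgeR log2 fold change of -0.23 turned to 0.663 without non-operated replicate 3 and to 0.035 without 1-month replicate 3. Without non-operated replicate 2 it was -0.649, with 144 of 150 members below 0 and 26 lower at an unadjusted p under 0.05. Over all genes that fit had 1198 of 16617 lower at the same threshold. The levels were below all non-operated samples for 1 member, against 8.04%.

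Between 2 months and 1 month in RPE-choroid, 80 members (53.3%) were lower at 2 months without overlap, against 30.7% of genes at 2 CPM or more. The other retina-preferring genes also summed to less at 2 months, at 48650 against 148700 CPM. Per 100 CPM of those genes the members summed to 15.1 ± 5.95 CPM at 1 month and 12.8 ± 0.862 CPM at 2 months (SD, n = 3 each). edgeR called 0 of 149 members lower, against 0.0% of genes tested, with a smallest adjusted p of 0.0548. At an unadjusted p under 0.05, 17 were lower, against 11.5% of genes tested. With the replicate number as a block 9 were lower, against 1369 of 16322 genes. DESeq2 called 12 lower, against 5.42% of genes with any count. An edgeR fit of only these 6 samples called 21 of 144, against 6.19%, and an edgeR fit of all 18 samples called 11 of 150, against 9.27%. The median log2 fold change was -1.53, and it lay between -1.26 and -1.85 with each operated replicate left out in turn. In the fit of all 18 samples, a test of whether the change between 1 and 2 months differed between retina and RPE-choroid called 0 members, against 0.00594% of genes tested called higher and 0.137% lower. Its smallest adjusted p over the members was 0.147, and 21 members passed an unadjusted p under 0.05, against 8.58% of genes tested called higher that way. With same-numbered retina and RPE-choroid samples of a group as a block, 0 members were called as well, against 0.00594% and 0.0772% of genes tested called higher and lower, and 18 passed the unadjusted p, against 9.82%. Both fits were added after the data had been seen.

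**Figure D4:**
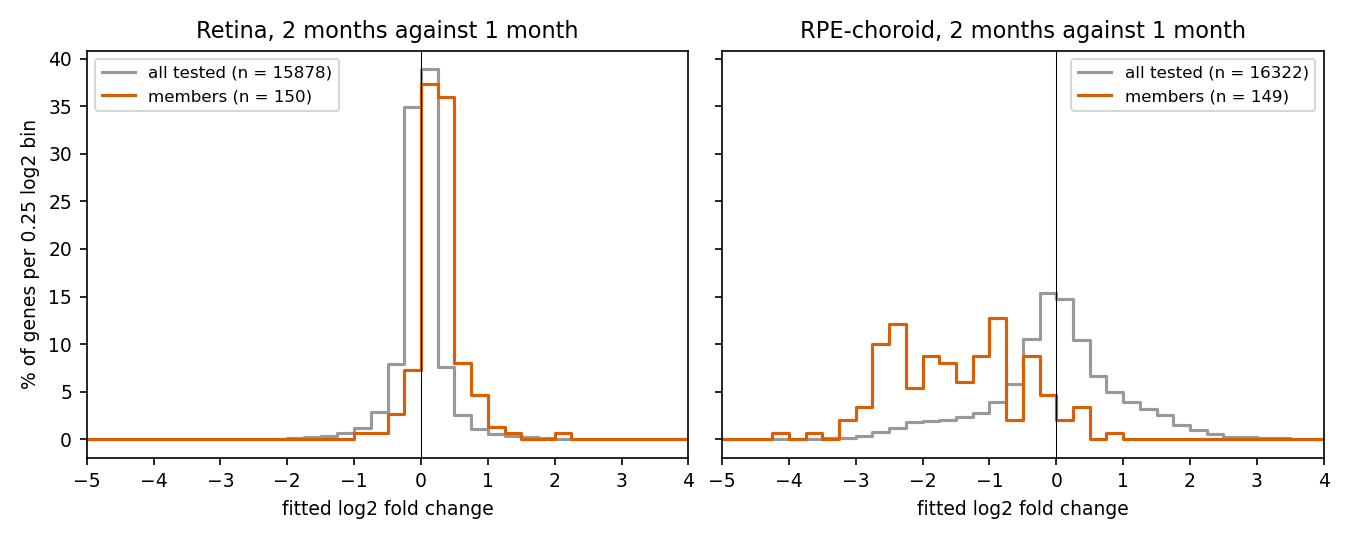
Percentage of genes in bins of the fitted log2 fold change of 2 months against 1 month, for retina (left) and RPE-choroid (right), for the members (orange) and all genes tested (grey). In retina the members' median is 0.255 against 0.006, and in RPE-choroid it is -1.53 with a spread from below -3 to above 0.

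Since the RPE-choroid libraries differed in their share of reads from retina-preferring genes, the members were also set against other retinal genes within each library. Retina-restricted genes were defined as those for which non-operated RPE-choroid replicate 2, the non-operated library with the fewest reads of retina-preferring genes, stood under 2% of the mean in non-operated retina. The counts of that library were matched to its sample by title, while the sample's description carries a further suffix. Of the members, 60 were retina-restricted. Of the 1564 retina-preferring genes that did not meet the criteria, 463 were, and these served as the reference. In retina the median reference gene stood at 86.3% to 107% of its non-operated mean in the 6 operated samples. Genes lower without overlap in operated retina were left out of the reference, so this was partly set by the choice. The reference sum, which the ratio uses, was 57690 to 58680 CPM in non-operated retina and 44290 to 56910 CPM in operated retina. The 60 members summed to 110, 107 and 110 CPM per 100 CPM of reference in non-operated retina, 62.3, 65.4 and 16.6 at 1 month, and 49.3, 42.0 and 82.1 at 2 months. Without the highest member the ratio was 52.9, 51.0 and 53.3 in non-operated retina. It was then 29.7, 28.8 and 11.1 at 1 month and 26.2, 22.2 and 39.4 at 2 months.

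In RPE-choroid the same ratio was 100, 89.3 and 108 without operation. It was 56.3, 53.6 and 22.8 at 1 month and 38.8, 46.0 and 44.0 at 2 months. Without the highest member it was 47.3, 54.2 and 52.8 without operation. The operated values were then 28.8, 25.8 and 15.3 at 1 month and 22.5, 24.8 and 35.7 at 2 months. All 6 operated RPE-choroid samples lay below the 3 non-operated ones, and none of these 6 had entered the rule. The separation holds for the restricted genes, which non-operated replicate 2 itself defined. Per 100 CPM of all other retina-preferring genes, the 150 members summed to 29.3, 14.2 and 35.8 CPM without operation. That ratio was 19.0, 18.1 and 8.28 at 1 month and 11.9, 13.6 and 13.0 at 2 months. Non-operated replicate 2 thus lay below 1-month replicates 1 and 2 on that scale. At 1 month the sample with the lowest ratio was replicate 3 in both tissues. At 2 months the high value of retina replicate 3 had no counterpart in RPE-choroid replicate 3 over all 60 members. Without the highest member, RPE-choroid replicate 3 was also the highest of its group. In that library the 60 members summed to 176.5 CPM over a reference of 401.5 CPM. Deviations from the group mean correlated between same-numbered retina and RPE-choroid samples at 0.42, 0.184 and 0.176 in non-operated eyes, 0.445, 0.425 and 0.536 at 1 month, and 0.19, 0.125 and 0.178 at 2 months (across genes, which are not independent replicates). If same-numbered samples are the same eyes, the RPE-choroid ratios are not from separate animals, and the retinal RNA in them can be the RNA of the retinas that chose the members.

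**Figure D5:**
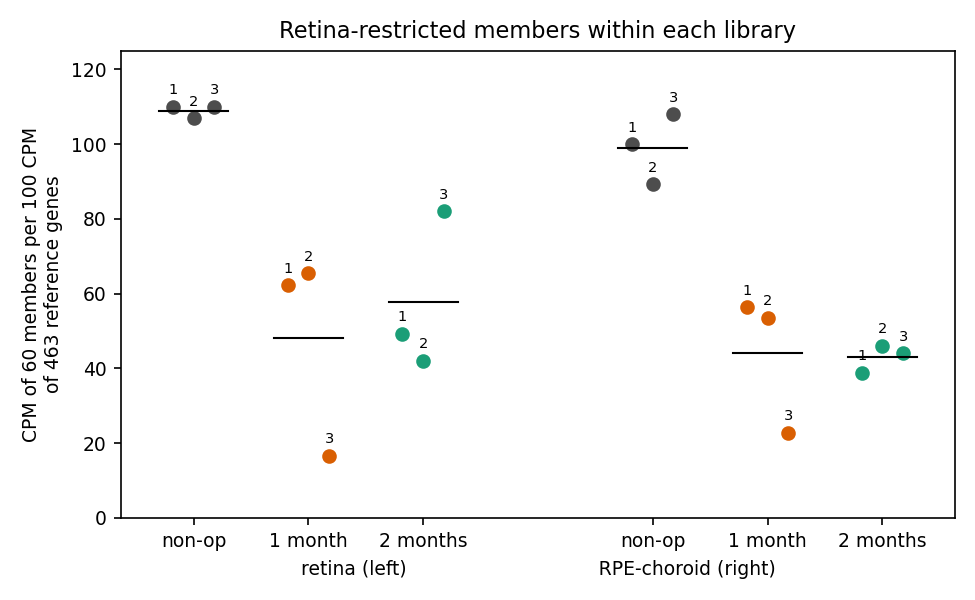
Summed CPM of the 60 retina-restricted members per 100 CPM of the 463 reference genes in each library, by tissue and group, with replicate numbers above the points and the group mean as a line. Operated samples lie below non-operated ones in both tissues, and 1-month replicate 3 is the lowest in both.

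With each RPE-choroid library scaled to its reference genes, 579 retina-restricted genes could be tested. The edgeR fit called 0 of 58 members lower at either time, with 0.0% of genes tested called lower, and the smallest adjusted p was 0.125 at 1 month and 0.135 at 2 months. At an unadjusted p under 0.05, 34 members were lower at 1 month and 22 at 2 months, against 8.46% and 7.43% of the genes tested, members included. The fitted log2 fold change was below 0 for 57 of 58 at 1 month, with a median of -1.08, and for 52 of 58 at 2 months, with a median of -0.958. For the 458 reference genes tested it was below 0 for 135 and 116, with medians of 0.307 and 0.371. The counts of calls changed most when 2-month replicate 3, the library with the fewest reads of reference genes, was left out. Leaving out non-operated replicate 2, which held nearly as few, gave 0 calls among members at both times. Leaving out 1-month replicate 3 gave 4 of 59 members called lower at 1 month, where 5 of 578 genes tested were called lower. Without 2-month replicate 3, 18 of 60 members were called lower at 1 month, against 4.12% of genes tested, and 10 of 60 at 2 months, against 2.58%. This scaling was chosen after the data had been seen.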

How the data were processed

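RNA was sequenced from 9 retina and 9 RPE-choroid samples on directional libraries. The authors trimmed reads with Trim Galore, aligned them to OryCun2.0 with HISAT2 and deposited raw HTSeq counts per Ensembl gene; versions and the strand setting are not given in the sources used here. The 5 summary entries without a gene held 46.6% to 52.9% of reads and were left out. Members were chosen on plain CPM by the criteria given above, and members and lists were chosen with earlier results of these data known. Counts were fitted per tissue (9 samples, 3 groups) with edgeR 4.0.16 in R 4.3.3, using TMM factors, filterByExpr (minimum count 10, total 15), robust quasi-likelihood tests, two-sided, with Benjamini-Hochberg adjustment over all genes tested and a threshold of 0.05. The standard error of a log2 fold change is its size divided by the root of the F statistic. DESeq2 1.42.0 was an alternative. Its shares are over all genes with any count in the tissue, also those it left without an adjusted p, so their base is wider than that of edgeR. Steps were tested on simulated data. Libraries held 22335005 to 33505730 reads on genes, and members with few counts carry counting error beside the spread between replicates.

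Identifiers were named by rule: the first 2 members with at least 10 CPM in non-operated retina, and the 2 with the largest fitted log2 fold change of 2 months against 1 month in retina. None of 38822 entries in the gene name table (mOryCun1.1) carried an identifier of these files, so marker and pathway lists were not used and no sequences were read. Replicate numbers come from the labels. Deviations of same-numbered samples correlated at 0.177, 0.371 and 0.399 between 1-month and 2-month RPE-choroid. The study took tissue after killing the animals at 1 month or 2 months, so these numbers do not pair samples by animal. The fit with the replicate number as a block is given as an alternative only. In the other 5 contrasts at least 1 pair was under 0.1.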

Additional observations from a re-analysis of the deposited data

How the results depend on the processing

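Of the alternatives, 29 moved a count by over 1.5 times or a summed level by over 1 SD of its group and 226 did not; the cause was not tested. Members called lower in retina were 34 at 1 month and 11 at 2 months in a fit of all 18 samples. That fit called 411 and 150 of 16846 genes lower. At 2 months DESeq2 called 117 members and 1111 of 23306 genes with any count lower. With the replicate block, 68 and 37 members and 690 and 267 of 15878 genes were called lower. The replicate numbers were not shown to pair the samples. With each replicate left out, members called lower ranged from 46 to 78 at 1 month and from 18 to 114 at 2 months. The fits at the 1-month ends called 258 of 16132 and 576 of 16038 genes lower. Those at the 2-month ends called 71 of 16158, 71 of 16114 and 1953 of 16211. For 2 months against 1 month in retina, 0 to 3 members were called lower with each replicate left out. The fit with 3 called 38 of 16211 genes lower. DESeq2 called 3 members higher, against 36 of 23306 genes with any count. In RPE-choroid DESeq2 called 3, 11 and 12 members lower at 1 month, at 2 months, and at 2 months against 1 month. The shares of genes with any count were 4.13%, 0.441% and 5.42%. For 2 months against 1 month, edgeR on the 2 groups alone gave 21 members and on all 18 samples 11, against 6.19% and 9.27% of genes tested. The blocked fits called 0 members in each RPE-choroid comparison and for 2 months against 1 month in retina, as without the block. Scaled to reference genes, members called ranged from 0 to 18 at 1 month and from 0 to 10 at 2 months with each replicate left out. At 1 month 4 were called without 1-month replicate 3. The fits that called 18, 10 and 4 members called 24 of 582, 15 of 582 and 5 of 578 genes lower. Without both non-operated replicate 2 and 2-month replicate 3, 25 and 25 members were called, against 32 and 36 of 581 genes.

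The number of genes that met the criteria was 33 with a log2 preference of at least 2, and 898 when the median of the operated samples had to lie below the lowest non-operated one. It ranged from 262 to 585 with each replicate left out, the extremes being without non-operated RPE-choroid replicate 2 and without non-operated retina replicate 2. With TMM factors it was 566, of whose first 150 genes 139 were members, and the members summed to 92410 CPM in non-operated retina. In non-operated RPE-choroid, where the SD is wide, their sum ranged from 11430 to 36480 CPM with each replicate left out.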

Other observations

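The 230 genes that met the criteria beyond the first 150 were set against the 1564 retina-preferring genes that did not meet them. Per 100 CPM of the latter, they summed to 36.0 ± 0.306 CPM in non-operated retina, 24.1 ± 4.3 at 1 month and 25.1 ± 4.09 at 2 months (SD, n = 3 each). In RPE-choroid, whose operated samples the criteria did not use, the ratio was 32.8 ± 3.75 without operation, 23.5 ± 2.5 at 1 month and 24.6 ± 2.36 at 2 months. The non-operated RPE-choroid samples did enter the criteria, through the preference. Retinal RNA in operated RPE-choroid can be that of the retinas that chose the genes. The 1564 leave out every gene lower without overlap in operated retina and hold the 105 that were higher. In retina, 1-month replicate 3 was the lowest of the 6 operated samples at 19.1 and 2-month replicate 3 the highest at 29.7, the same samples as for the members.

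The 105 retina-preferring genes that were higher without overlap in operated retina summed to 11420, 11800 and 10440 CPM in non-operated retina. They summed to 28950, 25080 and 36720 CPM at 1 month and to 31470, 36300 and 19430 CPM at 2 months, with replicate 3 the highest at 1 month and the lowest at 2 months. The criteria fix the direction of these sums but not their order among operated samples.

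By their lowest level in operated RPE-choroid, 69 members were under 2% of their mean in non-operated retina and 42 stayed from 10% to under 30%. In 2-month RPE-choroid replicate 3 the medians of these classes were 0.537% and 18.2%. In the operated retinas the medians of the first class were 45.2%, 47.2% and 19.2% at 1 month and 40.9%, 34.5% and 67.1% at 2 months. Those of the second class were 48.5%, 48.5% and 28.9% at 1 month and 41.4%, 37.0% and 70.0% at 2 months.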
